A study of Mus musculus with 2 samples.

Results

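The granzymes and perforin, the proteins by which cytotoxic lymphocytes kill, were followed in tumour-infiltrating NK cells, CD8 T cells and CD4 T cells. The 9 genes were taken by name from the mouse features of the count matrix (Gzma, Gzmb, Gzmc, Gzmd, Gzme, Gzmf, Gzmg, Gzmk and Prf1), out of 72302 genes in all, of which 33696 are mouse genes. Gzma and Gzmk lie on chromosome 13, Gzmb to Gzmg on chromosome 14 and Prf1 on chromosome 10. CD45-positive leukocytes were sorted from MC38 colon carcinomas grown under the skin of mice with human Fcγ receptors, a background that all 4 groups share, and were profiled with a 3′ droplet assay. Treated animals received 100 µg of a human IgG1 antibody to mouse GITR, a costimulatory receptor of T cells, in 2 injections at an interval of 3 days, and all tumours were taken 4 days post treatment. The annotation names GA-aFuc (an agonist with an enhanced Fc part), GITR/Syn GA-aFuc (a non-agonist with an enhanced Fc part), N297A (an agonist with a null Fc part) and Untreated, which received PBS. Library 2, whose counts were analysed, held 2 GA-aFuc mice, 2 GITR/Syn GA-aFuc mice, 1 N297A mouse and 1 Untreated mouse. GA-aFuc and GITR/Syn GA-aFuc are together called Fc-enhanced, a grouping chosen with earlier results of these data known.

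Granzymes are serine proteases stored in cytotoxic granules. Perforin, the product of Prf1, forms the pores through which granzymes enter a target cell. Granzyme B cleaves after aspartate and activates caspases, while granzymes A and K are tryptases. Granzymes C to G are encoded beside Gzmb in a rodent cluster of closely related genes that has no full counterpart in humans, and in mice they are known from strongly activated lymphocytes. The substrates of granzymes D to G are little known.

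The promoters of the chromosome 14 genes are shown because the 6 genes lie in one cluster and because the 5 rodent-specific members, among them Gzmd to Gzmg whose NK levels varied widely between mice, resemble each other. The sequences are the last 200 bases before the annotated start, 5′ to 3′ in the direction of the gene, from RefSeq on GRCm38.p6. Capitals mark the Runx motif TGTGGT on either strand and the cyclic AMP response palindrome TGACGTCA.
Gzmb (chr14:56262335-56262534, minus strand): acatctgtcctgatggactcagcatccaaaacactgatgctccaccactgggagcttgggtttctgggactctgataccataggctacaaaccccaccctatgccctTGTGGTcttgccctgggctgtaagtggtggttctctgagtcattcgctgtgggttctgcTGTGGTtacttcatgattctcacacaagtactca
Gzmc (chr14:56234658-56234857, minus strand): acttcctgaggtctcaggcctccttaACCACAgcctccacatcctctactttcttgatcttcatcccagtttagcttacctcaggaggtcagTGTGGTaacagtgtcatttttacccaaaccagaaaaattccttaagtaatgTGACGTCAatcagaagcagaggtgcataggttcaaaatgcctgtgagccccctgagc
Gzmd (chr14:56132594-56132793, minus strand): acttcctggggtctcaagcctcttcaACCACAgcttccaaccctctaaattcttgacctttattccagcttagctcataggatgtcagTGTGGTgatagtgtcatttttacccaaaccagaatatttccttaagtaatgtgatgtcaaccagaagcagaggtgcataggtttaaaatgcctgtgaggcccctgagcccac
Gzme (chr14:56120626-56120825, minus strand): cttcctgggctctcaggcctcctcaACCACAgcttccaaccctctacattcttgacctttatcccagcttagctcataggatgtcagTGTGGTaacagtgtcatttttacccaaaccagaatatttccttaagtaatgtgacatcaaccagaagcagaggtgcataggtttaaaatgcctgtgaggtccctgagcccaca
Gzmf (chr14:56211408-56211607, minus strand): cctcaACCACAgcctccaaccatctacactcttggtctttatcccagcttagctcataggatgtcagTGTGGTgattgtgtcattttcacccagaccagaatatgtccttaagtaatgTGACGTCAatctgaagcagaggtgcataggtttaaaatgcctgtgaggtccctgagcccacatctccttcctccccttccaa
Gzmg (chr14:56159580-56159779, minus strand): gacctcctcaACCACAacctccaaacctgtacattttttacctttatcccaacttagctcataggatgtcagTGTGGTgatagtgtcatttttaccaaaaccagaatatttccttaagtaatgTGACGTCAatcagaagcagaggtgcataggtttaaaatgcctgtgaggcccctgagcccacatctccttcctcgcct
Windows of 250 bases were found for 9 of 9 members. TGTGGT or its reverse complement was present in 8 of 9 member windows and in 14.05% of all 32851 windows. It was absent from that of Gzmk. In Gzmb to Gzmg it was present at 2 places, for instance at -174 to -169 and -112 to -107 before the start of Gzmd. The windows of Gzmc to Gzmg resemble each other, so their matches are not separate observations. The palindrome TGACGTCA was present in Gzmc, Gzmf and Gzmg, 3 of 9 members, against 1.546% of all windows, and these exact letters were not in the windows of Gzmd and Gzme. The Ets core GGAAGT was present in 7 of 9 member windows and in 19.74% of all windows. For the AP-1 motif TGANTCA the numbers were 1 of 9 and 6.749%, for the T-box half-site TCACAC 2 of 9 and 12.29%, and for the STAT motif TTCNNNGAA 0 of 9 and 7.02%; all were searched on both strands, and no motif of this set contains another. These matches are descriptions of letters, not of bound sites. The Gzmd and Gzme windows were 94.8% identical and those of Gzmc and Gzmd 81.3%, while Gzmb and Gzmc shared 49.65%. The last 300 bases of the Gzmd, Gzme, Gzmf and Gzmg transcripts, where a 3′ assay reads, were 82.4% to 88.2% identical pairwise. Of the 50-base stretches in these ends, 9.96% for Gzmd, 11.55% for Gzme, 12.75% for Gzmf and 25.1% for Gzmg were also found in another granzyme gene (in one or more of Gzmd to Gzmg and Gzmn), so how reads were divided among these genes is uncertain. For the other 5 members the share was 0%.

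Library 2 held 10476 annotated cells, 1540 to 1925 per mouse, with 17176544 to 25808043 UMIs (unique molecular identifiers, each 1 captured transcript molecule) per mouse. The annotation assigned 604 cells to NK, 542 to CD8, 64 to CD4 and 24 to Tregs. Levels are given as CPM, counts per 1000000 UMIs of the cells of a class, and since a 3′ assay counts each molecule once, CPM of different genes are compared without a length correction. The 6 NK markers summed to 1750 to 2355 CPM in NK cells of the 6 mice, against 586 to 760 CPM in CD8 cells, where Ncr1 was at 0 in the N297A and Untreated mice. Cd8a and Cd8b1 summed to 1152 to 1613 CPM in CD8 cells, against 0 to 5.49 CPM in NK cells. Median UMIs per NK cell were 9032, 9570, 9296 and 11856.5 in the 4 Fc-enhanced mice, against 6477 in the N297A and 6666 in the Untreated mouse. The part of this depth difference in the results below was not tested, and levels are scaled to total UMIs. Xist stood at 567 CPM in GA-aFuc mouse 1 and at 551 CPM in GITR/Syn GA-aFuc mouse 1, and at no more than 1.98 CPM in the other 4 mice, so sex differs between mice of both Fc-enhanced groups.

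NK cells carried the largest granzyme load. The 9 genes took 2.05% of all UMIs of NK cells, 0.518% of those of CD8 cells, 0.169% of those of Tregs and 0.0574% of those of CD4 cells. Gzmc alone held 47.7% of these UMIs in NK cells, with Gzma at 24.45% and Gzmb at 14.75%. In CD8 cells Gzmb held 48.1% and Gzmf 20.5%, and in Tregs Gzmb held 98.1%. In CD4 cells Gzmb held 65.96%. Pooled over mice, Gzmc thus led in NK cells and Gzmb in the 3 T cell classes. This is a description, since the classes were made from the same transcriptomes. Of the 370 member UMIs in Tregs, 122 came from the N297A mouse and 228 from the Untreated mouse. GA-aFuc mouse 1 gave 135 of the 282 member UMIs in CD4 cells.

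Prf1 stood at 931 CPM in NK cells of all mice pooled (range over mice 714 to 1170), 541 CPM in CD8 cells (270 to 640) and 61.0 CPM in CD4 cells. Gzmb was close in both cytotoxic classes, at 3026 CPM in NK cells (2042 to 3598) and 2493 CPM in CD8 cells (1133 to 3298), and it was higher in NK cells in 5 of 6 mice. Gzma, at 5013 CPM in NK cells (4301 to 6048) and 531 CPM in CD8 cells (225 to 789), was higher in NK cells in 6 of 6 mice. The spread of Gzma over mice was thus far smaller than the gap between the classes. Gzmk behaved in the opposite way, with 66.8 CPM in CD8 cells (45.1 to 80.2) and 2.83 CPM in NK cells (0 to 4.06). Gzmc stood at 9777 CPM in NK cells (6103 to 14270) and 408 CPM in CD8 cells (218 to 540). Gzmf was the one chromosome 14 gene that was higher in CD8 than in NK cells in most mice, 4 of 6, at 1062 CPM pooled (190 to 2412) in CD8 cells and 644 CPM (8.83 to 2039) in NK cells. Gzmd, Gzme and Gzmg stood at 692.5, 294 and 127.5 CPM in NK cells and at 41.9, 35.1 and 4.94 CPM in CD8 cells.

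Macrophages, which do not use cytotoxic granules, served as cells that should lack these transcripts. They held 15.5 CPM of Gzmc, 7.73 CPM of Gzmb, 5.70 CPM of Gzma, 2.06 CPM of Prf1 and 0.212 CPM of Gzmk. NK and CD8 cells exceeded these levels for all 9 members, with Gzmk in NK cells and Gzmg in CD8 cells the nearest to them. Barcodes with fewer than 100 UMIs held 599 CPM of Gzmc and 309 CPM of Gzma, so granzyme transcripts were also present in droplets without an annotated cell. In those barcodes Gzmk stood at 3.66 CPM, above its level in NK cells, and Gzmc, Gzmd (69.7 CPM) and Gzmg (31.9 CPM) stood above their levels in CD8 cells.

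**Figure D1:**
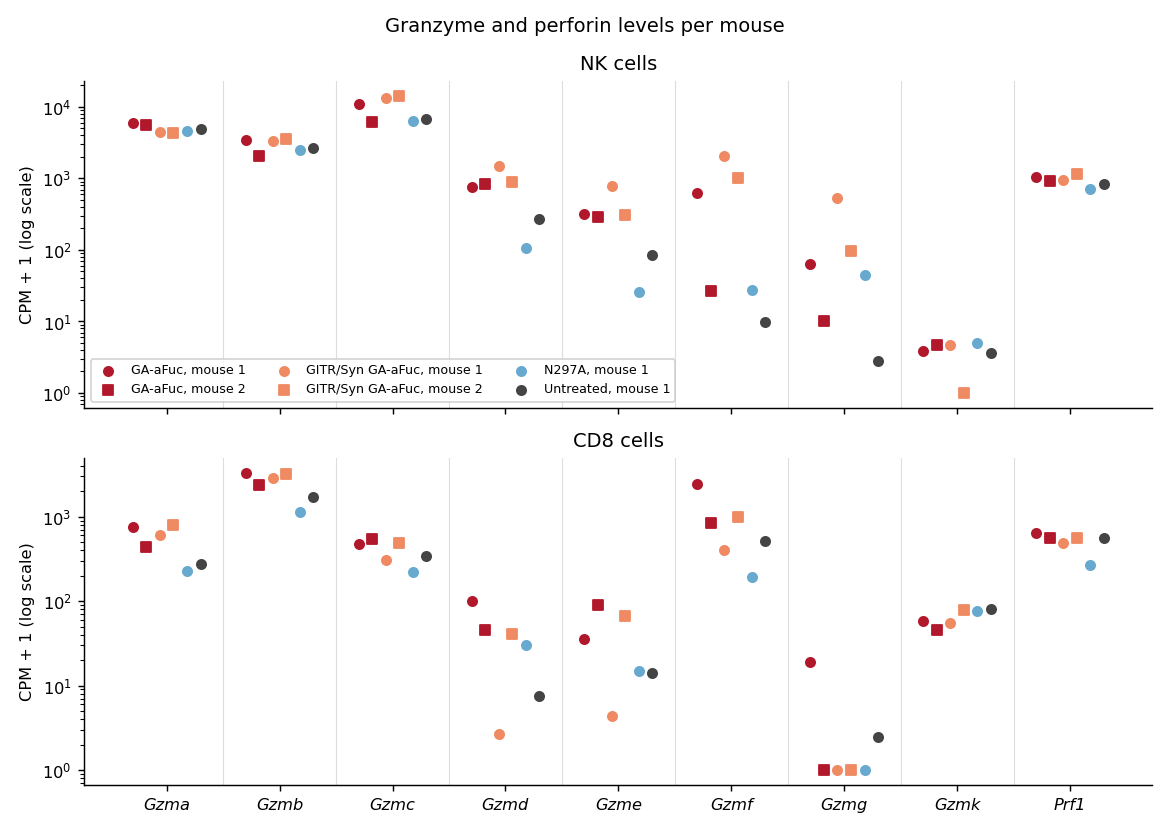
Level of each gene in each mouse, as CPM + 1 on a log axis, in NK cells (top) and CD8 cells (bottom); colours give the treatment and shapes the mouse. In NK cells Gzma, Gzmb and Prf1 stay within a narrow band, while Gzmf runs from 8.83 CPM in the Untreated mouse to 2039 CPM in GITR/Syn GA-aFuc mouse 1.

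NK cells were split by Gzma and Gzmc. The author clusters 19 and 26 (176 and 140 cells) were rich in Gzma, at 8411 and 11820 CPM, and held 494 and 47.2 CPM of Gzmc. Clusters 20, 48 and 58 (174, 63 and 51 cells) held 11660, 20220 and 11170 CPM of Gzmc and 4092, 1536 and 2934 CPM of Gzma. Gzmd followed Gzmc, with 863, 1879 and 351 CPM in clusters 20, 48 and 58, against 5.49 and 3.26 CPM in clusters 19 and 26. Pooled Gzmf was highest in clusters 58 and 48, at 1628 and 1318 CPM, against 420 CPM in cluster 20 and 1.83 CPM in cluster 19. That order came from mice given GITR/Syn GA-aFuc, where Gzmf stood at 9584 CPM (1171 UMIs in 6 cells) and 2557 CPM in cluster 58. In GA-aFuc mouse 1 Gzmf was highest in cluster 20, at 1518 CPM, against 55.5 CPM in cluster 48 and 29.4 CPM in cluster 58. Clusters were made from all genes, these among them, so their contrast is a description. The Gzmc-rich clusters were also the deeper ones, with median UMIs of 14282.5, 13208 and 20698 in clusters 20, 48 and 58, against 5764 and 3922.5 in clusters 19 and 26. Cluster 48 had the highest T cell marker sum among the NK clusters, at 601 CPM against 173 to 259 CPM in the other 4, with the Cd8 genes at 1.09 CPM and Cd4 at 1.09 CPM. Its type 1 innate lymphoid markers summed to 223 CPM, against 10.5 to 56.4 CPM in the other 4 and 398 to 764 CPM in the CD8 clusters. Its NK marker sum was the lowest of the NK clusters, at 1473 CPM against 1627 to 3145 CPM. Whether its cells are all NK cells was not tested.

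CD8 clusters differed in which granzyme they carried. Cluster 33 (112 cells) held 3178 CPM of Gzmb, 2167 CPM of Gzmf, 1071 CPM of Gzma and 890 CPM of Gzmc. Cluster 16 (174 cells) held 2753 CPM of Gzmb and 746 CPM of Prf1. Cluster 23 paired 1374 CPM of Gzmb with only 39.8 CPM of Prf1 and 113 CPM of Gzmk. It also had the highest macrophage marker sum of the CD8 clusters, 2136 CPM against 274.5 to 799 CPM. Its sum of Cd8a and Cd8b1 was the lowest, 669 CPM against 1063 to 1896 CPM. The part of other cells in its profile was not tested. Cluster 38, whose proliferation markers summed to 3015 CPM, held 2274 CPM of Gzmb and 1174 CPM of Gzmf. Gzmk was highest where Prf1 was lowest, in clusters 23 and 44, at 113 and 106 CPM with Prf1 at 39.8 and 145 CPM, against 52.3 to 62.1 CPM of Gzmk in the other CD8 clusters.

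**Figure D2:**
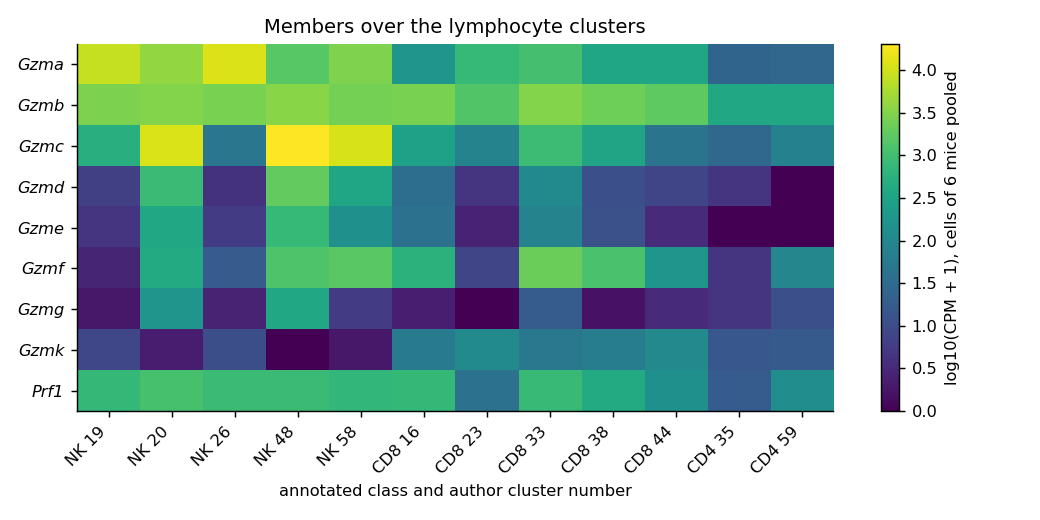
Pooled level of each gene (rows) in the NK, CD8 and CD4 author clusters (columns), as log10(CPM + 1), cells of the 6 mice pooled. Gzmc is highest in NK cluster 48 (20220 CPM) and Gzmf in CD8 cluster 33 (2167 CPM), and Gzmk does not exceed 113 CPM.

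Single NK cells showed the same split. With each cell thinned to 3000 UMIs (579 of 604 cells, the shallower ones left out), 54.4% had 5 or more UMIs of Gzma and fewer of Gzmc, 21.4% the reverse, 17.8% both and 6.39% neither. Across these cells, which come from 6 mice in 1 library, Pearson's r of log2 counts was -0.56 between Gzma and Gzmc and 0.80 between Gzmd and Gzme. Of the 71 NK cells with a Gzmd UMI at this depth, 97.2% also had a UMI of Gzmc, against 50.8% of the cells without Gzmd. Gzme was present in 70.4% of the cells with Gzmd and in 2.76% of those without. The NK share with Gzmc but little Gzma was 22.95% and 19.1% in GA-aFuc mice, 31.9% and 34.2% in mice given GITR/Syn GA-aFuc, 13.4% in the N297A and 13.4% in the Untreated mouse. All 4 Fc-enhanced mice thus lay above both other mice in this share. With 4 against 2 mice there are 15 arrangements, so an exact permutation p could not fall under 0.0667. The shares given here were not tested. The share with neither was 2.46% and 6.38% in GA-aFuc mice and 4.40% and 5.48% in mice given GITR/Syn GA-aFuc, against 8.66% in the N297A and 10.08% in the Untreated mouse.

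**Figure D3:**
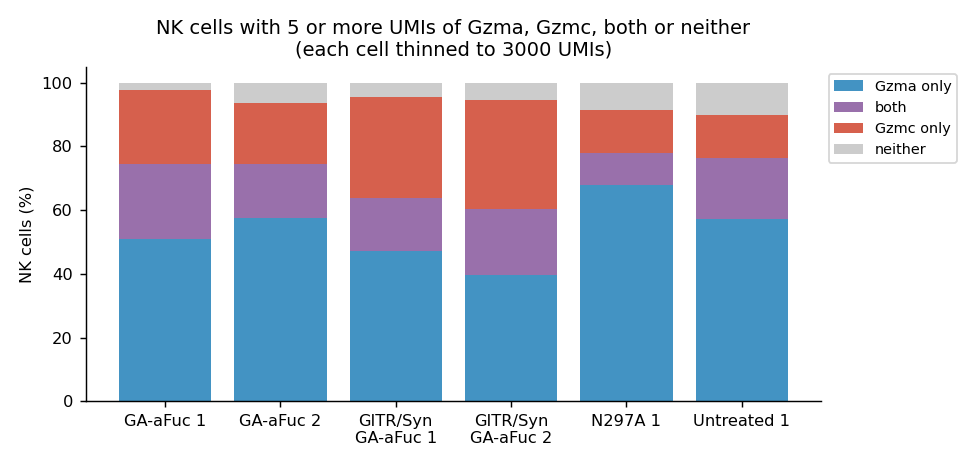
Share of NK cells in each mouse with 5 or more UMIs of Gzma only, both genes, Gzmc only or neither, after thinning to 3000 UMIs per cell. The Gzmc-only part is 19.1% to 34.2% in the 4 Fc-enhanced mice, 13.4% in the N297A and 13.4% in the Untreated mouse.

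In NK cells the levels of the rare granzymes D and E were higher in the Fc-enhanced mice than in the N297A and Untreated mice. Gzmd stood at 759 and 824 CPM in GA-aFuc mice and 1484 and 888 CPM in mice given GITR/Syn GA-aFuc, against 104 CPM in the N297A mouse and 267 CPM in the Untreated mouse. Gzme stood at 314 and 284 CPM and at 792 and 304.5 CPM in the same mice, against 25.2 CPM in the N297A mouse and 83.0 CPM in the Untreated mouse. For both genes every Fc-enhanced mouse lay above both others. In the edgeR test of GA-aFuc against Untreated alone, Gzme (log2 fold change 1.88 ± 0.41) did not pass the threshold. In the edgeR fit of both Fc-enhanced antibodies against N297A and Untreated, Gzmd rose by 2.59 ± 0.18 on the log2 scale (SE; adjusted p = 1.46e-06). Gzme rose by 3.19 ± 0.32 in that edgeR fit (adjusted p = 9.86e-05). With Gzmf, 3 of 8 tested members passed; 0.268% of the 9329 genes tested passed in either direction and 0.118% as higher. Gzmk in NK cells was removed by the filter on low counts and was not tested. Over NK, CD8 and CD4 cells together this contrast gave 3 member calls; it gave 3 without GA-aFuc mouse 1, 6 without GA-aFuc mouse 2, 11 without GITR/Syn GA-aFuc mouse 1 and 6 without GITR/Syn GA-aFuc mouse 2.

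Gzmf and Gzmg varied much more between mice. Gzmf stood at 618 and 25.6 CPM in GA-aFuc mice and 2039 and 1009 CPM in mice given GITR/Syn GA-aFuc, against 26.8 CPM in the N297A mouse and 8.83 CPM in the Untreated mouse. GA-aFuc mouse 2 lay below the N297A mouse, so the groups overlapped, yet the edgeR contrast of the Fc-enhanced antibodies passed (5.60 ± 0.83, adjusted p = 0.00861). Gzmg stood at 63.2 and 9.15 CPM in GA-aFuc mice and 530 and 94.2 CPM in mice given GITR/Syn GA-aFuc, against 43.0 CPM in the N297A mouse and 1.77 CPM (2 UMIs) in the Untreated mouse. It did not pass the same edgeR contrast (3.75 ± 0.85, adjusted p = 0.106).

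The antibodies were also tested singly. For GA-aFuc against Untreated, 1 of 8 members passed in NK cells, with 0.0536% of all genes passing in either direction and 0.0322% as higher. This was Gzmd (1.59 ± 0.24, edgeR adjusted p = 0.0163), which passed in 14 of 19 alternative settings, with an adjusted p of up to 0.999. For GA-aFuc against N297A, 2 of 8 passed, with 0.0429% of all genes, namely Gzmd (2.96 ± 0.26, edgeR adjusted p = 9.37e-05) and Gzme (3.61 ± 0.48, edgeR adjusted p = 0.00433). For GITR/Syn GA-aFuc against Untreated, 4 of 8 passed, with 0.129% of all genes passing in either direction and 0.0858% as higher. They were Gzmd (2.21 ± 0.24, edgeR adjusted p = 0.000496), Gzme (2.78 ± 0.41, 0.0115), Gzmf (7.47 ± 1.28, 0.0402) and Gzmg (7.43 ± 1.31, 0.0464). Of 19 alternative settings, Gzmd passed in 15, Gzme in 14, Gzmf in 9 and Gzmg in 12, with an edgeR or DESeq2 adjusted p of up to 0.998, 0.582, 0.998 and 0.52 in that order, and DESeq2 kept Gzmd alone. The Gzmg value rests on 2 UMIs in the Untreated mouse. As a ratio of pooled CPM it was 184, with a 95% counting interval of 50.8 to 1524. Without either GITR/Syn GA-aFuc mouse the Gzmf call of that comparison ended, with an edgeR adjusted p of up to 0.057. For GITR/Syn GA-aFuc against GA-aFuc, 0 of 8 passed by edgeR, with 0% of all genes; 7 members had an unadjusted p under 0.05, as 4.41% of all genes did, and DESeq2 called 0. With the sex of the mice as a term, a choice made once the values were known that leaves 1 residual degree of freedom, 4 of 8 passed in this comparison, beside 0.332% of all genes. They were Gzmc (0.79, edgeR adjusted p = 2.79e-06), Gzme (0.81, 0.00764), Gzmf (2.86, 3.15e-44) and Gzmg (3.13, 1.01e-29). With 1 residual degree of freedom, the smallest of these values cannot be taken as a measure of the spread between mice. For N297A against Untreated, 0 of 8 passed by edgeR, with 0.0107% of all genes; 3 members had an unadjusted p under 0.05, as 2.29% of all genes did, and DESeq2 called 0. Single mice moved these counts, taken over NK, CD8 and CD4 cells. GA-aFuc against Untreated, with 1 call, had 5 without GA-aFuc mouse 2, 2 without GITR/Syn GA-aFuc mouse 1 and 3 without GITR/Syn GA-aFuc mouse 2. GA-aFuc against N297A, with 3 calls, had 7 without either GITR/Syn GA-aFuc mouse. GITR/Syn GA-aFuc against GA-aFuc, with 0 calls, had 4 without GA-aFuc mouse 1, 2 without GA-aFuc mouse 2 and 4 without GITR/Syn GA-aFuc mouse 2. N297A against Untreated, with 0 calls, had 1 without GA-aFuc mouse 2 and 2 without either GITR/Syn GA-aFuc mouse. These comparisons share their mice, the single N297A and the single Untreated mouse above all, and each lone mouse is assumed to vary like the paired ones.

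The abundant NK members moved less. Gzmc stood at 10920 and 6103 CPM in GA-aFuc mice and 13200 and 14270 CPM in mice given GITR/Syn GA-aFuc, against 6298 CPM in the N297A mouse and 6839 CPM in the Untreated mouse. GA-aFuc mouse 2 lay below both other mice and the remaining 3 Fc-enhanced mice above them, and the Fc-enhanced contrast just missed the threshold (0.77 ± 0.16, edgeR adjusted p = 0.0551). Prf1 stood at 1037 and 909.5 CPM and at 949 and 1170 CPM in the Fc-enhanced mice in that order, against 714 CPM in the N297A mouse and 824 CPM in the Untreated mouse. All 4 Fc-enhanced mice were above both others, but the contrast did not pass (0.46 ± 0.12, edgeR adjusted p = 0.203). Such separation without overlap was seen for 3 of 9 members in NK cells (Gzmd, Gzme and Prf1) and for 7.62% of all genes tested. Gzma stood at 6048, 5554, 4496 and 4301 CPM in the Fc-enhanced mice, against 4653 CPM in the N297A mouse and 4940 CPM in the Untreated mouse (0.13 ± 0.08, edgeR adjusted p = 0.666). Gzmb stood at 3477, 2042, 3364 and 3598 CPM in the Fc-enhanced mice, against 2519 CPM in the N297A mouse and 2678 CPM in the Untreated mouse (0.31 ± 0.15, edgeR adjusted p = 0.541). Both overlapped between groups. The median log2 fold change of the 8 tested members was 1.68, against 0.017 for all genes. The NK classes also differed in T cell markers, whose 5 genes summed to 346.5, 196, 359 and 353 CPM in the Fc-enhanced mice, against 198 CPM in the N297A mouse and 191.5 CPM in the Untreated mouse. Their part in the result was not tested; Cd8a and Cd8b1 together were at no more than 5.49 CPM in NK cells of any mouse.

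**Figure D4:**
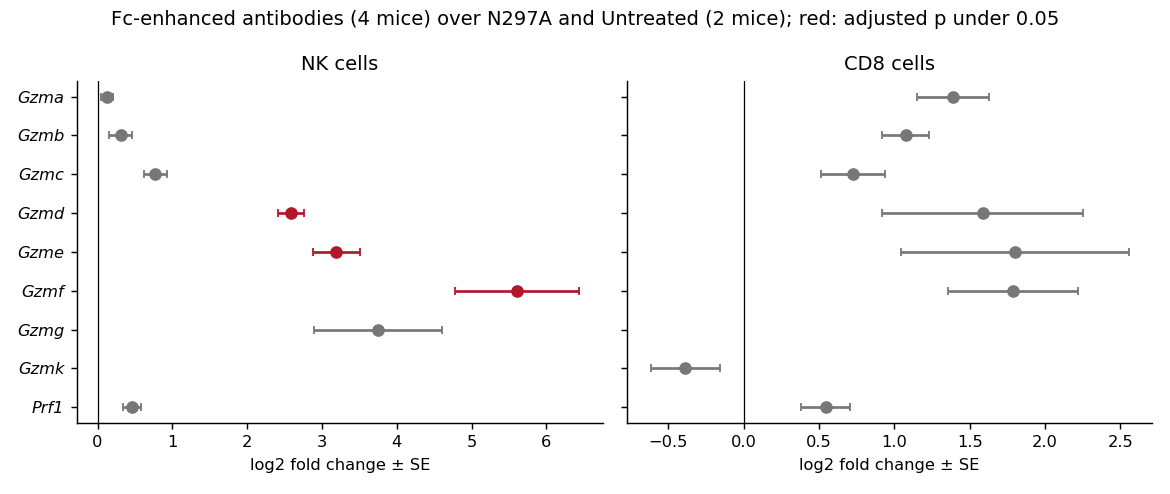
Log2 fold change of each member with its SE in the edgeR contrast of the 4 Fc-enhanced mice over the N297A and Untreated mice, in NK cells (left) and CD8 cells (right); red marks an adjusted p under 0.05. Gzmd, Gzme and Gzmf pass in NK cells and 0 members in CD8 cells; Gzmk in NK cells was not tested and Gzmg in CD8 cells is left out because 2 treatments had 0 UMIs.

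A small number of cells held most of the rare transcripts. Of 604 NK cells, 11 held 50% of the Gzmd UMIs, 10 those of Gzme, 3 those of Gzmf and 2 those of Gzmg, while Gzma needed 108 cells and Gzmb 84. The richest Gzmf cell, in GITR/Syn GA-aFuc mouse 1, held 1165 of that mouse's 2202 Gzmf UMIs, 52.9%. In GA-aFuc mouse 1 a single cell held 559 of 879 Gzmf UMIs, 63.6%. The richest Gzmd cell held 12.8% and 53.6% of the Gzmd UMIs in GA-aFuc mice, 23.35% and 39.5% in mice given GITR/Syn GA-aFuc, 57.8% in the N297A and 41.4% in the Untreated mouse. Without the 1 cell richest in Gzmd to Gzmg in each mouse, a choice made once the values were known, the contrast of Fc-enhanced mice kept Gzmd (3.22, edgeR adjusted p = 0.00897), Gzme (3.85, 0.0251) and Gzmf (4.95, 0.0261). Over the 18 alternative settings the edgeR or DESeq2 adjusted p of these calls ran from 9.32e-73 to 0.15 for Gzmd. It ran from 4.26e-69 to 0.0279 for Gzme and from 2.47e-177 to 0.0946 for Gzmf. With so few mice, the smallest of these values cannot be taken as a measure of the spread between mice. Without the 1 richest cell per mouse, the calls of GA-aFuc against Untreated and of GITR/Syn GA-aFuc against Untreated numbered 0.

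**Figure D5:**
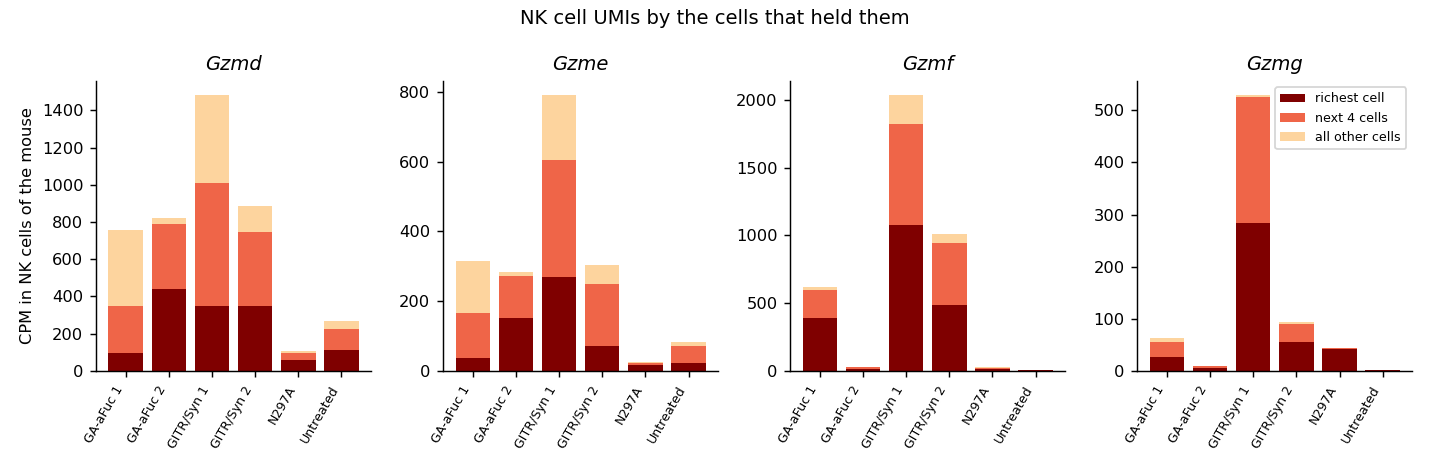
CPM of Gzmd, Gzme, Gzmf and Gzmg in NK cells of each mouse, as bars from 0 split into the part held by the richest cell, by the next 4 cells and by all other cells. In GITR/Syn GA-aFuc mouse 1 a single cell holds 52.9% of the 2039 CPM of Gzmf, while Gzmd is spread over more cells.

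Shares of cells are less affected by single rich cells. After thinning to 3000 UMIs, Gzmd was present in 18.0% and 12.8% of NK cells in GA-aFuc mice and in 19.8% and 16.4% in mice given GITR/Syn GA-aFuc, against 3.15% in the N297A and 7.56% in the Untreated mouse. The unthinned shares were 24.8%, 20.4%, 22.6% and 20.3%, against 10.4% and 10.2% in the N297A and Untreated mice. The Fc-enhanced mice averaged 16.75% ± 2.99 (SD, n = 4), the other 2 mice 5.36%, a difference of 11.4 percentage points. Gzme was present in 14.2% ± 5.66 of NK cells in Fc-enhanced mice and in 4.96% in the other mice, and Gzmf in 10.3% ± 5.94 and 2.42%. For Gzme the groups overlapped, with 6.38% as the lowest Fc-enhanced share and 7.56% as the highest other share. For Gzmf they overlapped too, with 2.13% as the lowest Fc-enhanced share and 3.15% as the highest other share. The background share in macrophages was 0.598% for Gzmd and 0.317% for Gzme at the same depth, with a median of 14327 UMIs per cell before thinning against 8402.5 in NK cells. No test was made on shares.

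In CD8 cells Gzma and Gzmb were the members that separated the groups. Gzmb stood at 3298 and 2352 CPM in GA-aFuc mice and 2887 and 3166 CPM in mice given GITR/Syn GA-aFuc, against 1133 CPM in the N297A mouse and 1714 CPM in the Untreated mouse. Gzma stood at 757 and 440.5 CPM and at 603 and 789 CPM, against 225 CPM in the N297A mouse and 274 CPM in the Untreated mouse. Neither gene overlapped between groups, 2 of 9 members beside 6.15% of all genes tested. By edgeR 0 of 9 members passed in the Fc-enhanced contrast, where 0.0117% of 8570 genes did; 7 members had an unadjusted p under 0.05, as 3.99% of all genes did, and DESeq2 called Gzmb. The nearest were Gzmb (1.08 ± 0.15, edgeR adjusted p = 0.0719) and Gzma (1.39 ± 0.24, 0.152). The 8 members with counts in every treatment had a median log2 fold change of 1.23, against 0.01 for all genes.

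The other CD8 members overlapped between groups. Gzmf stood at 2412, 850, 404 and 979 CPM in the Fc-enhanced mice, against 190 CPM in the N297A mouse and 510 CPM in the Untreated mouse (1.79 ± 0.43, edgeR adjusted p = 0.800). Gzmc stood at 478.5, 540, 308 and 490.5 CPM, against 218 CPM in the N297A mouse and 346 CPM in the Untreated mouse (0.73 ± 0.21, edgeR adjusted p = 0.999). Prf1 stood at 640, 567, 487 and 560 CPM, against 270 CPM in the N297A mouse and 556 CPM in the Untreated mouse (0.54 ± 0.16, edgeR adjusted p = 0.999). For Prf1 the N297A mouse was the low one. Gzmk was the sole member with a lower value, at 57.8, 45.1, 54.7 and 77.8 CPM in the Fc-enhanced mice, against 76.1 CPM in the N297A mouse and 80.2 CPM in the Untreated mouse (-0.39 ± 0.23, edgeR adjusted p = 0.999). Gzmd and Gzme ran from 1.66 to 99.8 CPM and from 3.31 to 90.3 CPM in the Fc-enhanced mice, against 29.4 and 13.8 CPM in the N297A mouse and 6.56 and 13.1 CPM in the Untreated mouse. Gzmg was listed with 25 UMIs in GA-aFuc mouse 1 and 2 in the Untreated mouse, and at 0 in the other 4 mice; no fold change is given. By edgeR 0 of 9 CD8 members passed in any of the 5 pairwise comparisons, where 0% to 0.0117% of genes did; DESeq2 called Gzmb and Prf1 in GA-aFuc against N297A. An unadjusted p under 0.05 was found for 5 members in GA-aFuc against N297A (4.83% of all genes), 5 in GA-aFuc against Untreated (2.45%), 3 in GITR/Syn GA-aFuc against GA-aFuc (3.63%), 2 in GITR/Syn GA-aFuc against Untreated (3.87%) and 2 in N297A against Untreated (3.38%).

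The effect in NK cells was set against that in CD8 cells of the same mice with edgeR. In GA-aFuc against Untreated, 0 of 9 members differed past the threshold, beside 0.0509% of 9823 genes; 4 had an unadjusted p under 0.05, as 4.75% of genes did. In N297A against Untreated it was 0 of 9, beside 0%; 5 had an unadjusted p under 0.05, as 4.27% of genes did. The count was 1 in GA-aFuc against N297A (0.0204% of genes), 2 in GITR/Syn GA-aFuc against Untreated (0.305%), 3 in GITR/Syn GA-aFuc against GA-aFuc (0.0713%) and 3 in the Fc-enhanced contrast (0.173%). DESeq2 called 0 in each of these contrasts.

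Members were also tested within the 4 author clusters that had at least 10 cells in every mouse. In NK cluster 20, Gzme stood at 469 and 412 CPM in GA-aFuc mice and 946 and 188 CPM in mice given GITR/Syn GA-aFuc, against 49.4 CPM in the N297A mouse and 140 CPM in the Untreated mouse. It passed the Fc-enhanced contrast (2.63 ± 0.39, edgeR adjusted p = 0.00152), as did Gzmf (4.26 ± 0.81, 0.0115). Gzmf stood at 1518 and 46.9 CPM in GA-aFuc mice and 345 and 155.5 CPM in mice given GITR/Syn GA-aFuc, against 55.3 CPM in the N297A mouse and 10.4 CPM in the Untreated mouse. GA-aFuc mouse 2 thus lay below the N297A mouse, and DESeq2 called 0 members of this contrast within clusters. These are 2 of 8 members, beside 0.422% of 6878 genes in either direction and 0.145% as higher. Gzmd stood at 1225 and 1345 CPM and at 1605 and 191 CPM, against 225 CPM in the N297A mouse and 534 CPM in the Untreated mouse, so GITR/Syn GA-aFuc mouse 2 lay below both (1.67 ± 0.40, edgeR adjusted p = 0.0696). Gzma in this cluster was 5894 and 5168 CPM in GA-aFuc mice, against 2838 CPM in the N297A mouse, and rose by 1.004 ± 0.17 (edgeR adjusted p = 0.00644). Gzme rose too in that comparison (3.20 ± 0.59, edgeR adjusted p = 0.019), making 2 of 8 members beside 0.0872% of genes in either direction and 0.0436% as higher. Against Untreated, Gzmf passed for GA-aFuc (6.25 ± 1.28, edgeR adjusted p = 0.0236), with 854 and 14 UMIs in GA-aFuc mice and 5 in the Untreated mouse; 0.32% of genes passed, 0.0582% as higher. Gzmg passed for GITR/Syn GA-aFuc against Untreated (edgeR adjusted p = 0.03), with 312 and 12 UMIs against 0, at least 63.5-fold higher against a floor of 3 UMIs in the Untreated mouse. Against that floor GITR/Syn GA-aFuc mouse 2 alone was at least 5.74-fold higher; 0.291% of genes passed, 0.0872% as higher.

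NK cluster 19, rich in Gzma, had 0 of 4 tested members past the threshold in any contrast by edgeR, where 0.0221% of 4531 genes passed in GITR/Syn GA-aFuc against Untreated and 0% in the others. Unadjusted, 1 member in GA-aFuc against N297A (4.28% of genes), 0 in GA-aFuc against Untreated (2.69%), 2 in GITR/Syn GA-aFuc against GA-aFuc (3.55%), 1 in GITR/Syn GA-aFuc against Untreated (2.96%), 1 in N297A against Untreated (2.16%) and 2 in the Fc-enhanced contrast (4.37%) had a p under 0.05. In CD8 cluster 16, Gzmb stood at 2947 and 2572 CPM in GA-aFuc mice and 3121 and 5858 CPM in mice given GITR/Syn GA-aFuc, against 991 CPM in the N297A mouse and 1774 CPM in the Untreated mouse. It passed the Fc-enhanced contrast (1.42 ± 0.21, edgeR adjusted p = 0.0106), 1 of 8 members beside 0.0394% of 5075 genes in either direction and 0.0197% as higher. CD8 cluster 23 had 0 of 4 tested members past the threshold by edgeR in any contrast. Of its 3072 genes, 0.13% passed in GA-aFuc against N297A, 0% in GA-aFuc against Untreated, 0.391% in GITR/Syn GA-aFuc against GA-aFuc, 0.228% in GITR/Syn GA-aFuc against Untreated, 0.0651% in N297A against Untreated and 0.0651% in the Fc-enhanced contrast. In that order 1, 1, 1, 2, 1 and 1 members had an unadjusted p under 0.05, beside 4.85%, 3.42%, 5.79%, 5.27%, 3.94% and 5.18% of genes.

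With the cluster mix held equal, the levels were averaged over the clusters with at least 5 cells in every mouse, 3 in NK cells (19, 20 and 26) and 4 in CD8 cells (16, 23, 33 and 38). The Gzmc-richest NK cluster 48 is not among them, since it held 12.8% and 2.04% of NK cells in GA-aFuc mice, 16.1% and 17.6% in mice given GITR/Syn GA-aFuc, 5.19% in the N297A and 8.59% in the Untreated mouse. In CD8 cells Gzmc then stood at 455.5 and 500.3 CPM in GA-aFuc mice and 398 and 454 CPM in mice given GITR/Syn GA-aFuc, against 246 CPM in the N297A mouse and 329 CPM in the Untreated mouse. The exact two-sided permutation test over the 4 treatments gave p = 0.0222, the smallest that 180 arrangements allow, and it was the one value under 0.05 of the 18 computed over both classes. With at least 10 cells per mouse and cluster, which leaves 2 CD8 clusters, the exact permutation p of CD8 Gzmc was 0.511. CD8 Gzmb stood at 3260 and 2240 CPM in GA-aFuc mice and at 2980 and 3730 CPM in mice given GITR/Syn GA-aFuc, against 1103 CPM in the N297A mouse and 1874 CPM in the Untreated mouse (exact permutation p = 0.111). NK Gzmd at the equal mix stood at 439 and 478 CPM in GA-aFuc mice and 570 and 71.3 CPM in mice given GITR/Syn GA-aFuc, against 84.3 CPM in the N297A mouse and 193.5 CPM in the Untreated mouse. In this mix, which leaves out clusters 48 and 58, GITR/Syn GA-aFuc mouse 2 lay below both other mice (exact permutation p = 0.689). An edgeR fit on counts scaled to the equal mix called CD8 Gzmb in the Fc-enhanced contrast (1.16, adjusted p = 0.00035), with Gzma, Gzmc and Gzmf, beside 0.165% of all genes. In NK cells that fit called Gzme (2.59, edgeR adjusted p = 0.00849) but neither Gzmd nor Gzmf, beside 0.39% of all genes.

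CD4 cells were few, 19 and 11 in GA-aFuc mice, 9 and 5 in mice given GITR/Syn GA-aFuc, 12 in the N297A and 8 in the Untreated mouse. Gzmb stood at 817 and 529 CPM (102 and 43 UMIs), at 120 and 103 CPM (13 and 4 UMIs), at 67.4 CPM (5 UMIs) and at 298 CPM (19 UMIs) in that order. Only GA-aFuc and N297A mice had the 10 cells needed for a fit, which left 1 residual degree of freedom. Gzmb rose in GA-aFuc against N297A mice (3.31 ± 0.75, edgeR adjusted p = 0.00267), 1 of 2 members tested beside 0.794% of 2142 genes in either direction and 0.607% as higher. That call was kept in 8 of 9 alternative settings but not by DESeq2, and it rests on 5 UMIs in the N297A mouse. In GA-aFuc mouse 1, 101 of the 102 Gzmb UMIs came from 13 cells that also carried Cd8a or Cd8b1 UMIs. In GA-aFuc mouse 2, 38 of 43 came from 10 cells without them. CD4 cluster 59, pooled over mice, held 723 CPM of Cd8a and Cd8b1 against 163 CPM of Cd4, so its pooled markers go against its label. This pooled value rests mostly on GA-aFuc mouse 1, which gave 11 cells of the cluster. Over all CD4 cells that mouse held 150 UMIs of Cd8a and Cd8b1. GA-aFuc mouse 2 held 1, the GITR/Syn GA-aFuc mice 10 and 0, the N297A mouse 10 and the Untreated mouse 0. In CD4 cluster 35 the 5 macrophage markers, all detected, summed to 4908 CPM, against 2642 CPM for the 5 T cell markers. Tregs, 24 cells in all, held 1655 CPM of Gzmb (363 UMIs, 95% counting interval 1489 to 1834 CPM), with Gzma, Gzmd, Gzme, Gzmg and Gzmk at 0 UMIs, which allows up to 13.7 CPM. In these cells the 5 macrophage markers, all detected, summed to 10020 CPM, beside 3916 CPM for the 4 Treg markers and 2598 CPM for the T cell markers. The part of these transcripts in the Treg and CD4 values was not tested; macrophages held 7.73 CPM of Gzmb.

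The genes that serve the granzymes were followed in 5 lists. Over NK, CD8 and CD4 cells and all contrasts, 0 of 668 tests passed by edgeR; 100 (14.97%) had an unadjusted p under 0.05, beside 4.65% of the tests of all genes in the same fits, and DESeq2 called 2, both of Tox. In NK cells of GA-aFuc against Untreated mice, the 14 tested granule genes had a median log2 fold change of 0.09 (10 positive, 4 negative), against 0.011 for all genes. Among them Stx11, a syntaxin of granule release, stood at 0.88 ± 0.37 (edgeR adjusted p = 0.999). Among the 6 serpin genes followed, not all of them known as granzyme inhibitors, the median was 0.10. Serpinb9b stood at 1.71 ± 0.38 (edgeR adjusted p = 0.379) and Serpinb6a at 1.03 ± 0.35 (0.914). Serpinb9b stood at 89.96 and 51.2 CPM in NK cells of the GA-aFuc mice, against 22.95 CPM in the Untreated mouse. Among 9 other effectors the median was 0.02, with Ccl3, a chemokine, at 1.39 ± 0.49 and Fasl, the Fas ligand, at -0.53 ± 0.22. The 11 tested transcription factors had a median of -0.06 in NK cells, with Tox at -0.87 ± 0.27 (edgeR adjusted p = 0.823). In CD8 cells their median was 0.04 over 12 genes, with Tox, a factor of exhausted T cells, at 121 and 162 CPM in GA-aFuc mice against 335 CPM in the Untreated mouse (-1.27 ± 0.24, edgeR adjusted p = 1). The 12 genes of IL-2 and IL-15 receptors and STAT5 targets had a median of -0.15 in NK cells and 0.30 in CD8 cells, where the kinase gene Pim1 stood at 0.97 ± 0.27 (edgeR adjusted p = 1).

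Across the 12 lymphocyte clusters with at least 20 cells, the pattern of other genes was set against that of each member among 10734 genes. As descriptions over 12 clusters that share 1 library, the nearest gene to Gzmc was Spp1, osteopontin (r = 0.92), which ran from 20.8 to 1644 CPM and was also nearest to Gzmd (r = 0.90). Nearest to Gzme was Ctsd, cathepsin D (r = 0.91), which was also among the 3 nearest to Gzmd (0.89). Eomes, a T-box factor of NK cells, was among the 3 nearest to Gzma (r = 0.96). Myo10 (r = 0.94), Cnih1 (0.93) and Tfrc, the transferrin receptor (0.93), were nearest to Gzmf. For Gzmk the genes were Lrrc57 (0.94), Pttg1 (0.93) and Notch1 (0.92), for Prf1 Srgap3 (0.94), Adamts14 (0.94) and Mrpl44 (0.94), and for Gzmb Lasp1 (0.96), Oip5os1 (0.95) and Gm12596 (0.95).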

How the data were processed

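Per the labels' protocols, sorted CD45-positive tumour cells of hashtagged mice were pooled into libraries and sequenced with a 3′ droplet assay. The deposited UMI counts were made by the authors with Cell Ranger 9.0.0, per the file headers, and the submitters' processing notes name GRCh38 and GRCm39. Cell types and clusters are the authors' deposited annotation; no source used here states how types were assigned or doublets treated, and doublets were not called again. Library 2 cells are the last 6 of 12 runs of rising barcodes in the annotation, and the mouse of each run was also the top hashtag in 10476 of 10476 cells. Library 1 was not analysed here; 34 annotated barcodes are shared by both libraries. The design states more mice per treatment than library 2 holds.

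Counts were summed per mouse and class (at least 10 cells) and tested with edgeR 4.0.16 (quasi-likelihood, filterByExpr, TMM, 1 mean per treatment, Benjamini-Hochberg adjustment over all genes, threshold 0.05) in R 4.3.3, with 2 residual degrees of freedom. DESeq2 1.42.0 was an alternative. Fold changes are log2 with SE. In the main fits of NK and CD8 cells, the spread between mice comes from the 2 pairs alone. In CD4 cells it comes from the GA-aFuc pair alone. The edgeR fit moderates the spread of each gene towards that of the other genes tested. The p-values thus rest only in part on the spread of the member itself. In each pair mouse 1 had high Xist and mouse 2 high Uty, so the spread between mice cannot be told apart from sex. The N297A and Untreated mice both had high Uty, so mice with high Xist occur among the Fc-enhanced mice alone. In bulk sums, fewer cells of a state and less RNA per cell cannot be told apart. Levels with the cluster mix held equal are means of cluster CPM weighted by pooled cells, tested on log2(CPM + 1) by an exact permutation test. Intervals cover counting error only. On simulated data for GA-aFuc against Untreated in NK cells, 38 of 100 2-fold and 100 of 100 8-fold changes were recovered, with 4 false calls among 9059 genes. In CD8 cells these were 16 and 99 of 100, with 1 false call among 8427. The simulated counts had the same dispersion for every gene, and the changes were placed among the more abundant genes. These rates therefore cannot be carried over to Gzmd to Gzmg, which are rare and held by few cells.

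All 9 members are named. From the 5 other lists up to 4 genes per list and class with the smallest p in GA-aFuc against Untreated, and any that passed, could be named; the most alike genes are the 3 with the highest correlation. The members and lists were chosen with earlier results of these data known. Alternatives were other scaling, tool, filters, features, cells, cluster mix, a term for sex (read from Xist and Uty) and each mouse left out. Promoters are RefSeq on GRCm38.p6, which differs from the build of the counts, so no coordinates were joined between them.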

Additional observations from a re-analysis of the deposited data

Results flagged for a closer look

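By edgeR, but not by DESeq2, the treatment effect differed past the threshold between NK and CD8 cells for some members. It was tested as the difference of log2 fold changes (NK minus CD8) with mouse as a term. For GA-aFuc against Untreated, the one contrast planned for this test, 0 of 9 members passed by edgeR, beside 0.0509% of 9823 genes; 4 had an unadjusted p under 0.05 and DESeq2 called 0. The other contrasts go beyond that plan. For GA-aFuc against N297A, 1 of 9 members passed, beside 0.0204% of genes: Gzmb differed by -1.215 (edgeR adjusted p = 6.5e-05), with 0.18 in NK and 1.34 in CD8 cells. For GITR/Syn GA-aFuc against Untreated, 2 of 9 passed, beside 0.305% of genes: Gzma differed by -1.427 (edgeR adjusted p = 0.000435) and Gzmf by 7.053 (0.000216). For GITR/Syn GA-aFuc against GA-aFuc, 3 of 9 passed, beside 0.0713% of genes. These were Gzmf (3.966, edgeR adjusted p = 0.000334), Gzmc (1.144, 0.0105) and Gzmg (9.148), where Gzmg had 0 UMIs in CD8 cells of both GITR/Syn GA-aFuc mice, so its value is no measured size. For both Fc-enhanced antibodies against N297A and Untreated, 3 of 9 passed, beside 0.173% of genes: Gzma (-1.246, edgeR adjusted p = 3.98e-05), Gzmb (-0.789, 0.000123) and Gzmf (3.547, 0.0103). In this last contrast the values of Gzma and Gzmb were thus lower in NK than in CD8 cells, and that of Gzmf higher. DESeq2 with the same design called 0 members in every contrast. In NK cells 3 of 604 hold 50% of the Gzmf UMIs, and their part in these differences was not tested.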

How the results depend on the processing

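The calls rest on few mice and, for Gzmd to Gzmg, on few cells. Of 11 calls over NK, CD8 and CD4 cells, 11 were kept with RLE size factors, with no filter, with mouse features only and with only the treatments compared, 10 with equal cells per mouse, 9 with the stricter filter or without the 1% of cells with most UMIs, and 6 by DESeq2. Without the cell richest in Gzmd to Gzmg in each mouse 4 were kept, and of the 10 that still had a value 3 without the 3 richest cells, 5 with a hashtag share of at least 90%, 1 with the cluster mix held equal and 9 or 10 without a GA-aFuc or GITR/Syn GA-aFuc mouse. No paired analysis was possible because the labels give no replicate numbers that treatments share. A fit with the sex of the mice as a term, added after seeing the data with 1 residual degree of freedom, kept 10 of 10 calls in NK and CD8 cells. Members called became 6 for GA-aFuc against Untreated (beside 0.352% of all genes in both classes), 10 for GA-aFuc against N297A (0.62%), 7 for GITR/Syn GA-aFuc against Untreated (0.358%), 6 for GITR/Syn GA-aFuc against GA-aFuc (0.313%), 4 for N297A against Untreated (0.101%) and 11 for the Fc-enhanced contrast (0.693%). In each pair the sex term separates mouse 1 from mouse 2, the only replicates, and so takes up spread that the main fit counts. Calls kept or gained with that term therefore cannot show whether the calls depend on sex. CD4 cells without Cd8a or Cd8b1 UMIs could not be fitted, since 6 were left in GA-aFuc mouse 1. The settings without the richest cells were chosen after seeing the data. The causes were not tested.

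Members called for GA-aFuc against Untreated, 1, became 0 by DESeq2, with the cluster mix equal, with the hashtag minimum and without the 1 or 3 richest cells, 3 with equal cells or only the treatments compared, and 8 with no filter (1 to 5 without 1 mouse). For GA-aFuc against N297A, 3 became 11 with no filter, 10 with only the treatments compared, 1 without the richest cell and 0 without the 3 richest (2 to 7 without 1 mouse). For GITR/Syn GA-aFuc against Untreated, 4 became 1 by DESeq2, 2 with the stricter filter or without the 1% of cells, and 0 with the equal mix, the hashtag minimum or without the richest cells. For GITR/Syn GA-aFuc against GA-aFuc, 0 became 1 with equal cells and 8 with no filter (0 to 4 without 1 mouse). For N297A against Untreated, 0 became 4 with no filter (0 to 2 without 1 mouse). For both Fc-enhanced antibodies, 3 became 5 with the equal mix, equal cells or without the 3 richest cells, and 11 with no filter (3 to 11 without 1 mouse). Within author clusters, DESeq2 called 0 where edgeR called 1 for GA-aFuc against Untreated, 1 against 2 for GA-aFuc against N297A, 0 against 1 for GITR/Syn GA-aFuc against Untreated, 1 against 0 for GITR/Syn GA-aFuc against GA-aFuc and 0 against 3 for the Fc-enhanced contrast. For the NK against CD8 difference it called 0 where edgeR called 1 for GA-aFuc against N297A, 2 for GITR/Syn GA-aFuc against Untreated, and 3 each for GITR/Syn GA-aFuc against GA-aFuc and the Fc-enhanced contrast. With at least 10 cells per mouse and cluster, 0 members had an exact permutation p under 0.05, against 1.

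Directions turned only for values that had not passed. With equal cells, log2 fold changes became -0.213 (Gzmc) and -0.293 (Prf1) in CD8 cells of GA-aFuc against Untreated, -0.011 (Gzma) in GITR/Syn GA-aFuc against GA-aFuc, and -0.434 (Gzmc), -0.077 (Gzmf) and 0.203 (Gzmk) in GITR/Syn GA-aFuc against Untreated. CD8 values of N297A against Untreated became -0.769 (Gzme) and 0.274 (Gzmk). NK values became 0.202 (Gzma), 0.138 (Gzmc), 2.713 (Gzmd) and -3.344 (Gzmg) in N297A against Untreated, and Gzma became -0.105 in GA-aFuc against N297A and -0.107 in the Fc-enhanced contrast. With the cluster mix equal, CD8 Gzmk became 0.163 in GA-aFuc against N297A, and CD8 Prf1 became -0.004 in GA-aFuc against Untreated, 0.046 in GITR/Syn GA-aFuc against GA-aFuc and 0.041 in GITR/Syn GA-aFuc against Untreated. NK Gzmd became -0.449 and Gzmf -1.614 in GITR/Syn GA-aFuc against GA-aFuc, Gzma 0.016 in GITR/Syn GA-aFuc against Untreated and Gzmg -0.23 in GA-aFuc against N297A. That Gzmg value was -0.203 by DESeq2 and -0.004 with only the treatments compared. With the hashtag minimum, NK Gzma became 0.107 in GITR/Syn GA-aFuc against Untreated and 0.145 in N297A against Untreated, and CD8 Gzme -0.016 in N297A against Untreated (-0.001 with no filter). Without the richest cell, N297A against Untreated became -0.343 (Gzmd) and -6.232 (Gzme) in CD8 and -0.12 (Gzmg) in NK cells, and CD8 Prf1 0.002 in GITR/Syn GA-aFuc against Untreated. Without the 3 richest, it became -0.329, -6.217 and -0.114 for those genes and -0.309 for NK Gzmf, and CD8 Gzmf became -1.392 in GITR/Syn GA-aFuc against Untreated.

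With sex as a term, NK Gzmb became -0.012 and Gzmg -1.929 (edgeR adjusted p = 0.000483) in GA-aFuc against N297A, NK Gzmb -0.117 in GA-aFuc against Untreated, and CD8 Gzmg, with 0 UMIs in some treatments, -2.335 there and -3.46 in the Fc-enhanced contrast.

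Leaving out 1 mouse gave values on both sides of 0. In CD8 cells, GITR/Syn GA-aFuc against GA-aFuc ran from -0.122 to 0.668 for Gzma, -0.13 to 0.367 for Gzmb and -4.084 to 0.23 for Gzme. GITR/Syn GA-aFuc against Untreated ran from -0.213 to 0.52 for Gzmc, -1.946 to 2.581 for Gzmd, -1.989 to 2.321 for Gzme, -0.384 to 0.955 for Gzmf and -0.238 to 0.028 for Prf1, and the Fc-enhanced contrast from -0.269 to 1.999 for Gzmd. In NK cells, GA-aFuc against N297A ran from -0.267 to 0.505 for Gzmb, -0.01 to 0.834 for Gzmc, -0.029 to 4.561 for Gzmf and -2.182 to 0.594 for Gzmg. GA-aFuc against Untreated ran from -0.372 to 0.416 for Gzmb and -0.145 to 0.715 for Gzmc, and GITR/Syn GA-aFuc against GA-aFuc from -0.029 to 0.337 for Prf1.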
